A study of Mus musculus with 20 samples.

Results

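Telomerase and shelterin are the protein machines that lengthen and cap chromosome ends, and 10 of the 55487 genes in the deposited count table were taken to stand for them. They were chosen by symbol. Tert encodes the catalytic subunit of telomerase. Dkc1, Nop10, Gar1 and Nhp2 encode the H/ACA proteins (dyskerin and its partners) that hold the telomerase RNA. Terf1, Terf2, Tinf2, Acd and Pot1a encode the shelterin proteins TRF1, TRF2, TIN2, TPP1 and POT1a. Each symbol matched 1 gene row, and all 10 genes passed the filter on low counts that left 12799 genes for testing. On GRCm38 they lie apart from each other, with Tert at chr13:73626911-73649843, Dkc1 at chrX:75095854-75109777, Nop10 at chr2:112261926-112263269, Gar1 at chr3:129824912-129831396, Nhp2 at chr11:51619735-51623714, Terf1 at chr1:15805646-15844052, Tinf2 at chr14:55674689-55681820 and Pot1a at chr6:25743737-25809246. Only Acd (chr8:105695860-105701102) and Terf2 (chr8:107069400-107096547) share a chromosome.

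Telomerase is a reverse transcriptase that copies an RNA template onto the chromosome end. TERT is usually its limiting protein, because its gene is kept low in most somatic cells, whereas the H/ACA proteins are abundant since they also serve small nucleolar RNAs that guide pseudouridylation of ribosomal RNA. In shelterin, TRF1 and TRF2 bind the double-stranded repeat, TIN2 bridges them, and TPP1 joins POT1 to that bridge, POT1 binding the single-stranded overhang while TPP1 recruits telomerase. Mice carry a pair of POT1 genes, Pot1a and Pot1b, and POT1a is the one known for holding back the DNA damage kinase ATR at telomeres.

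The samples were 20 RNA-seq libraries of BV-2, an immortalised mouse microglial line made from cultures of juvenile brain, labelled with genotype WT. There were 4 groups of 5 cultures: young untreated, young LPS, aged untreated and aged LPS. The LPS groups received bacterial lipopolysaccharide, a ligand of Toll-like receptor 4, at 100 ng/ml for 6 h, and the untreated groups received none. Young cells were kept at low passage, and aged cells were aliquots of the same line frozen after long-term cultivation, so age here means time in culture of an immortalised line and not the age of an animal. Each of 5 batches named in the labels held 1 culture of every group. Total counts per library ran from 11371508 to 16829292. Of 9 microglial marker genes, 7 reached a mean of 1 CPM (counts-per-million, a share of the library), with Cx3cr1 and P2ry12 below it, and no marker of neurons, astrocytes, oligodendrocytes, fibroblasts or endothelium exceeded 1.45 CPM in any library. Aged LPS replicate 3 stood apart from its group on the first principal component. Values without it are given for those of the 10 genes whose calls it changed, and not for the other genes named. In bulk RNA, fewer cells expressing a gene and less of its RNA per cell cannot be told apart.

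The promoters of 4 of these genes are shown because they belong to the genes whose transcripts moved most (Tert and Pot1a), to a shelterin gene with the same 8-base match as Pot1a (Tinf2), and to an H/ACA gene (Gar1). They are RefSeq windows of 300 bases on GRCm38.p6, from 250 bases before the annotated start to 50 after it, written 5′ to 3′ in the direction of transcription, with motif matches in capitals.
Tert (chr13:73626661-73626960, plus strand): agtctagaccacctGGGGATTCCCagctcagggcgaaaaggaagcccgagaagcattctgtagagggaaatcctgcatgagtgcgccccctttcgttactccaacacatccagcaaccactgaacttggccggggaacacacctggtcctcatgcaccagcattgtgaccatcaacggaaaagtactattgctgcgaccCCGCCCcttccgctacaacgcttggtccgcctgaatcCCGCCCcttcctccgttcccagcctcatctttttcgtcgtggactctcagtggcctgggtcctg
Pot1a (chr6:25809169-25809468, minus strand): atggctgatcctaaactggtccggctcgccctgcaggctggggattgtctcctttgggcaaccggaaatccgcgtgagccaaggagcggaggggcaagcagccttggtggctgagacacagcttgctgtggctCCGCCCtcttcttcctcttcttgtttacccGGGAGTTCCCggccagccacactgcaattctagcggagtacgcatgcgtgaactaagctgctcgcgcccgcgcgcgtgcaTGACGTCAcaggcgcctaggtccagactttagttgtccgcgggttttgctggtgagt
Tinf2 (chr14:55681768-55682067, minus strand): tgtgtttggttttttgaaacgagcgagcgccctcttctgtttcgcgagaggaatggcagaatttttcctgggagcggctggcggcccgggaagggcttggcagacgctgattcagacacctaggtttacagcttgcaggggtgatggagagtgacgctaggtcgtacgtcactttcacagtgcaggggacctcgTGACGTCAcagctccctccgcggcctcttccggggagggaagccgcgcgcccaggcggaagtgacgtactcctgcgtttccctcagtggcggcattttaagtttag
Gar1 (chr3:129831347-129831646, minus strand): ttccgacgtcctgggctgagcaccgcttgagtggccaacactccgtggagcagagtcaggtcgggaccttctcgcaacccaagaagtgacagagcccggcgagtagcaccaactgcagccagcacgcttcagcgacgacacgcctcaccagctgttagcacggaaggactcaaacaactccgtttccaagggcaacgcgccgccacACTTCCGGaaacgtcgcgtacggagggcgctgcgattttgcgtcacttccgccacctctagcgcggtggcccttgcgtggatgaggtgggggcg

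The motifs were searched on both strands, and were chosen after the sequences had been seen. The cyclic AMP response element, TGACGTCA, was in the promoters of Pot1a (starting 7 bases before the annotated start) and Tinf2 (56 bases before it), which was 2 of the 9 genes with a promoter in the table, against 1.79% of 32851 promoters. The GC box, GGGCGG, was in 4 of the 9 (Tert, Nhp2, Terf2 and Pot1a), against 35.7% of all promoters. The NF-kB motif was in Tert and Pot1a, against 4.51%, and the ETS motif, CCGGAAGT, was in Gar1 and Nhp2, against 3.89%. The E-box bound by MYC and MAX, CACGTG, was in none of the 9, against 7.15%, and the same held for the E2F motifs TTTGGCGC and TTTCCCGC, against 1.56%. In the printed sequences the capitals of Tert are an NF-kB match followed by 2 GC boxes, those of Pot1a a GC box, an NF-kB match and the cyclic AMP element, that of Tinf2 the cyclic AMP element, and that of Gar1 an ETS match. No motif overlapped another. The base composition of the 9 promoters ran from 48.0% G plus C in Acd to 63.0% in Gar1, around a median of 52.7% over all promoters. A match is only a match of letters, and binding was not measured.

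Levels between genes were compared as CPM per kb of annotated exon, after scaling libraries by trimmed means (TMM). In young untreated cells Nhp2 stood highest at 233 ± 16.1 CPM per kb (SD, n = 5), followed by Nop10 at 130 ± 13.9, Gar1 at 46.4 ± 7.28 and Dkc1 at 44.1 ± 1.14. Every shelterin gene was lower than every H/ACA gene. Acd stood at 12.7 ± 0.689 CPM per kb, Terf2 at 8.50 ± 0.472, Tinf2 at 7.52 ± 0.516, Terf1 at 5.31 ± 0.318 and Pot1a at 2.33 ± 0.110. Tert was the lowest, at 0.289 ± 0.0514 CPM per kb. The order was the same in all 4 groups. Libraries of Gar1 and Dkc1 overlapped in every group, and those of Terf2 and Tinf2 overlapped in every group but aged untreated, so neither pair had a firm order. The length used joins the exons of all annotated transcripts of a gene, so levels between genes also depend on the annotation. For Terf1 it was 4608 bases, beside 2268 in its longest coding transcript. Overlaps with neighbouring genes, given further on for Tinf2 and Acd, bear on these levels.

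**Figure D1:**
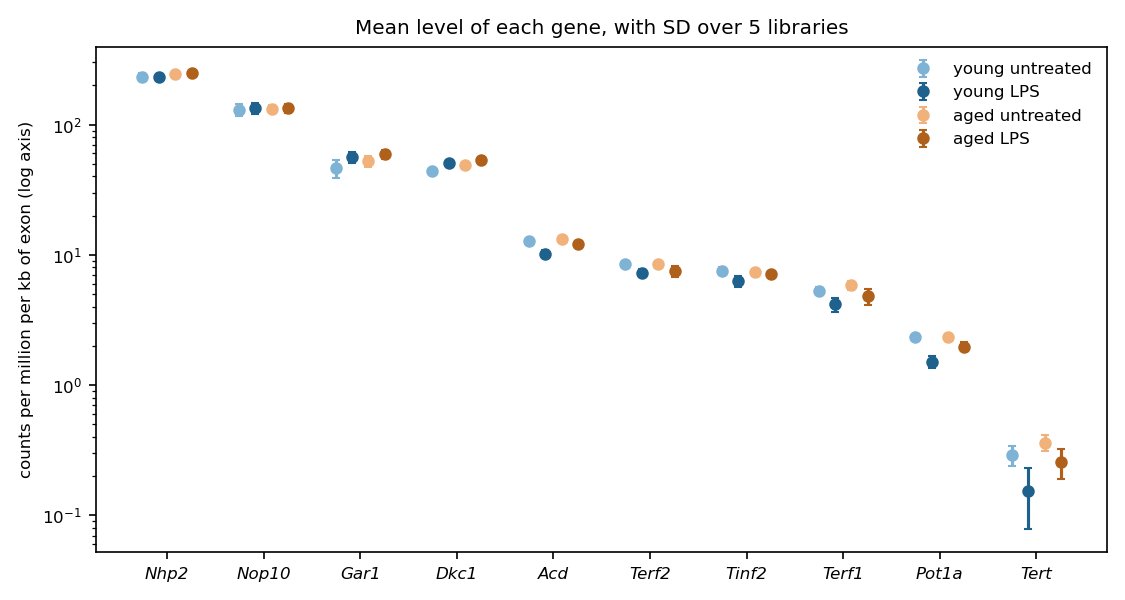
Mean level of each gene in CPM per kb of exon (y axis, log scale) for the 4 groups, with SD over 5 libraries as bars. In young untreated cells the means run from 233 for Nhp2 to 0.289 for Tert, and the H/ACA genes lie above the shelterin genes in every group.

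The telomerase RNA itself, Terc, could not be followed. It carries no poly(A) tail in its mature form, the libraries were made from mRNA, and Terc had 2 to 12 counts per library (0.138 to 0.995 CPM), with 3 counts being worth 0.165 to 0.296 CPM. It did not pass the filter and was not tested.

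In untreated cells 1 of the 10 genes differed between aged and young cultures. Dkc1 rose in aged cells, and the other 9 genes did not pass the test in edgeR's quasi-likelihood fit, with p-values adjusted by Benjamini-Hochberg over all 12799 genes and a threshold of 0.05. That was 1 of 10 genes higher and 0 lower (0 lower also at an unadjusted p under 0.05 and in DESeq2), beside 3.71% of all genes called higher and 7.81% lower (11.5% in either direction). The median log2 fold change of the 10 genes was 0.05, beside -0.01 over all genes tested. Of all called genes, 32.2% were higher in aged cells, and 42.2% when libraries were scaled by their totals alone.

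Dkc1, the pseudouridine synthase dyskerin, had 180, 182, 175, 184 and 187 CPM in the 5 young untreated libraries and 204, 200, 198, 190 and 211 CPM in the 5 aged untreated libraries. The groups did not overlap, which held for 10.4% of all genes, and Dkc1 was higher in aged cells in 5 of 5 batches. The difference was 0.14 ± 0.04 (log2, SE; adjusted p = 0.0272, edgeR). It was a small difference close to the threshold: leaving out aged untreated replicate 1, 2 or 5, or young untreated replicate 1, 2 or 3, gave adjusted p up to 0.0821, while the log2 fold change over all 20 single removals stayed between 0.12 and 0.16. The call was also lost with no filter on low counts (adjusted p = 0.114) and without batch 1, 2, 3 or 5 (adjusted p up to 0.112). It was kept in DESeq2 (adjusted p = 0.00595), and in edgeR with batch as a block (0.0183) or library totals alone (0.0146).

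For Tert the interval was too wide to say whether its level differed. Tert had 21, 21, 34, 24 and 28 counts in the young untreated libraries, which is 1.45, 1.34, 2.05, 1.58 and 1.86 CPM. In the aged untreated libraries it had 29, 36, 38, 41 and 25 counts, or 1.88, 2.42, 2.17, 2.25 and 1.67 CPM. The groups overlapped, and the aged library was higher in 4 of 5 batches. The log2 difference was 0.32 with a 95% interval from -0.12 to 0.77 (adjusted p = 0.370, edgeR), so a fall of more than 0.12 or a rise of more than 0.77 lay outside the interval. The shelterin genes were bounded more tightly. The 95% intervals were -0.16 to 0.15 for Pot1a, -0.15 to 0.11 for Tinf2, -0.14 to 0.14 for Terf2, -0.08 to 0.17 for Acd and -0.05 to 0.32 for Terf1. For the H/ACA genes not called they were -0.03 to 0.37 for Gar1, -0.05 to 0.17 for Nhp2 and -0.13 to 0.18 for Nop10. The Gar1 estimate, 0.17, was not below the 0.14 of Dkc1, but its interval was wider.

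After LPS the telomerase catalytic subunit and all 5 shelterin genes fell in young cells, and Dkc1 and Gar1 rose on the TMM scale but not with scaling by library totals. In young cells 6 of the 10 genes were called lower and 2 higher, beside 33.5% of all genes lower and 31.2% higher (64.6% either way). The median log2 fold change was -0.25 for the 10 genes and -0.01 for all genes tested. TMM and scaling by library totals alone differed by 0.22 log2 units in the median of all genes in young cells and by 0.16 in aged cells. With library totals alone 27.3% of called genes were higher in young cells in place of 48.2%, and 28.4% in aged cells in place of 50.6%. Values below are relative to the TMM scale. The falls of Tert and shelterin were larger on the other scale, whereas Dkc1 changed direction, to -0.02 in young cells and -0.02 in aged cells, and Gar1 came to 0.05 and 0.02.

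**Figure D2:**
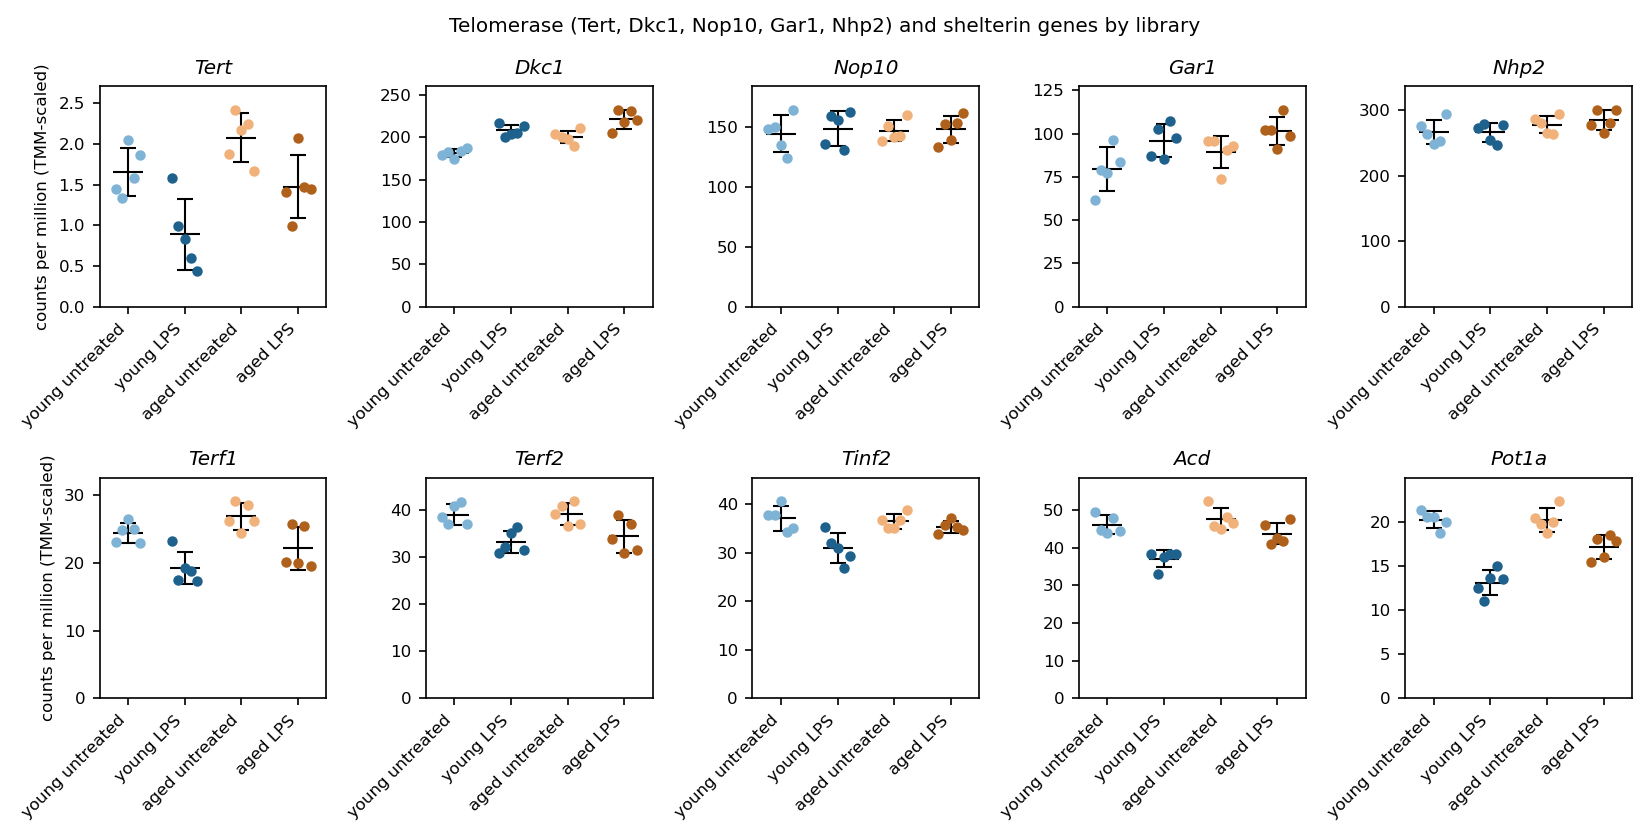
TMM-scaled CPM (y axes from 0) of the 10 genes in each of 20 libraries (points, 5 per group), with the group mean as a dash and SD as bars. Pot1a sits between 11.0 and 14.9 in young LPS libraries, below the other 3 groups, while the groups of Nop10 and Nhp2 overlap throughout. The rise of Dkc1 after LPS is on this TMM scale and is not seen with scaling by library totals.

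Pot1a had the largest F over the 4 groups of any of the 10 genes (F = 26.8, rank 3510 of 12799), F being a difference relative to its error. The young untreated libraries had 21.3, 20.5, 20.5, 18.7 and 20.0 CPM, and the young LPS libraries had 12.5, 11.0, 13.6, 14.9 and 13.5 CPM. The groups did not overlap (49.1% of all genes did not), and all 5 batches fell. The log2 fold change was -0.62 ± 0.08 (SE; adjusted p = 3.52e-07, edgeR), or 0.650 times the untreated level.

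Tert fell the most on the log scale, and was also the least precisely measured. It had 16, 12, 12, 8 and 6 counts in the young LPS libraries, that is 1.58, 0.995, 0.828, 0.597 and 0.442 CPM, against 1.34 to 2.05 CPM without LPS. Replicate 1 lay inside the untreated range and the other 4 below it. The log2 fold change was -0.95 ± 0.26 (SE; adjusted p = 0.00266, edgeR), with a 95% interval from -1.48 to -0.41. Every left-out library kept the call, the log2 fold change staying between -1.22 and -0.77.

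The remaining shelterin genes fell by less. Acd, whose product TPP1 brings telomerase to the telomere, had 49.5, 44.8, 43.9, 48.1 and 44.4 CPM untreated and 38.3, 33.1, 37.6, 38.3 and 38.3 CPM with LPS, without overlap. Its log2 fold change was -0.31 ± 0.06 (adjusted p = 8.16e-05, edgeR). Tinf2, the TIN2 bridge, had 37.8, 37.8, 40.7, 34.2 and 35.2 CPM untreated and 35.3, 32.0, 31.0, 26.9 and 29.4 CPM with LPS. It fell in all 5 batches, by 0.27 ± 0.06 on the log2 scale (adjusted p = 0.000919, edgeR), although replicate 1 of the LPS group overlapped the untreated range. The duplex-binding factors followed the same direction. Terf1 had 23.0, 24.8, 26.4, 25.0 and 23.0 CPM untreated and 23.2, 17.4, 19.2, 18.9 and 17.4 CPM with LPS, a log2 fold change of -0.35 ± 0.09 (adjusted p = 0.00190, edgeR), with LPS replicate 1 again among the untreated libraries. Terf2 had 37.1 to 41.7 CPM untreated and 30.9 to 36.6 CPM with LPS, without overlap, a log2 fold change of -0.23 ± 0.07 (adjusted p = 0.00561, edgeR). No single left-out library ended the call of Acd, Tinf2, Terf1 or Terf2 in young cells.

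None of the 4 H/ACA genes fell on the TMM scale. Dkc1 had 217, 201, 204, 205 and 214 CPM with LPS against 175 to 187 CPM without, a log2 fold change of 0.20 ± 0.04 on the TMM scale (adjusted p = 0.000248, edgeR) and of -0.02 with library totals alone (adjusted p = 0.643). Gar1, which completes the mature H/ACA particle, had 61.7, 78.8, 77.3, 96.3 and 83.8 CPM untreated and 87.0, 103, 85.0, 107 and 97.5 CPM with LPS. The groups overlapped, though each batch rose, and the log2 fold change was 0.27 ± 0.10 (adjusted p = 0.0180, edgeR). The Gar1 call was lost without young untreated replicate 1 (0.19, adjusted p = 0.0639) or young LPS replicate 4 (0.23, adjusted p = 0.0551), and its log2 fold change was 0.05 with library totals alone. Leaving out batch 1 or 2 also ended the Gar1 call (adjusted p = 0.0566 and 0.0901, edgeR). Nop10 ranged from 124 to 164 CPM untreated and from 130 to 163 CPM with LPS, with a 95% interval of the log2 fold change from -0.11 to 0.20. Nhp2 ranged from 249 to 294 CPM untreated and from 246 to 279 CPM with LPS, with an interval from -0.12 to 0.11. With library totals alone both genes passed the test as lower, Nop10 at -0.18 and Nhp2 at -0.23.

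In aged cells fewer of these genes passed the test after LPS. Of the 10 genes 3 were called lower and 1 higher, beside 26.9% of all genes lower and 27.5% higher (54.4% either way), and their median log2 fold change was -0.08 beside 0.00 over all genes. Terf1, Terf2 and Pot1a fell. Dkc1 rose on the TMM scale and in DESeq2 (0.14, adjusted p = 0.00295), but not with library totals alone.

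Pot1a had 20.4, 19.7, 18.7, 19.9 and 22.3 CPM in aged untreated libraries and 15.5, 18.1, 15.9, 18.5 and 17.8 CPM in aged LPS libraries. The ranges did not overlap, as for 40.1% of all genes, and the log2 fold change was -0.24 ± 0.08 (adjusted p = 0.0117, edgeR). Terf1 had 26.1, 29.1, 24.4, 28.6 and 26.2 CPM untreated and 20.1, 25.7, 20.0, 25.5 and 19.5 CPM with LPS, so that 3 LPS libraries lay low and replicates 2 and 4 lay within the untreated range. Its log2 fold change was -0.28 ± 0.09 (adjusted p = 0.0107, edgeR). Terf2 ranged from 36.7 to 42.0 CPM untreated and from 31.0 to 38.9 CPM with LPS, a log2 fold change of -0.19 ± 0.07 (adjusted p = 0.0261, edgeR). The Terf2 call was lost without aged LPS replicate 3 (-0.15, adjusted p = 0.0801), aged LPS replicate 5 (-0.15, adjusted p = 0.0790), aged untreated replicate 2 (-0.17, adjusted p = 0.0600) or aged untreated replicate 4 (-0.16, adjusted p = 0.0725). Leaving out batch 1 or 5 also ended the Terf2 call (adjusted p = 0.059 and 0.075, edgeR). Dkc1 had 204, 200, 198, 190 and 211 CPM untreated and 206, 233, 218, 232 and 220 CPM with LPS, higher in 5 of 5 batches, a log2 fold change of 0.14 ± 0.04 (adjusted p = 0.00528, edgeR). No single library ended the calls of Pot1a, Terf1 and Dkc1, but a whole batch did, batch 1 or 5 for Pot1a (adjusted p = 0.0529 and 0.0595), batch 5 for Terf1 (0.0531) and batch 4 for Dkc1 (0.0624). The Dkc1 call was also lost with no filter on low counts (0.13, adjusted p = 0.0713).

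Tert, Acd and Gar1 were near the threshold in aged cells. Tert had 20, 12, 30, 19 and 20 counts with LPS (1.41, 0.990, 2.07, 1.47 and 1.45 CPM) and was lower than its untreated partner in all 5 batches, but its log2 fold change of -0.48 had an adjusted p of 0.0723 (edgeR). Without aged LPS replicate 3, the library that stood apart and the highest for Tert, the log2 fold change was -0.64 (adjusted p = 0.0259), and without young LPS replicate 1, which only enters the shared spread, it was -0.48 (adjusted p = 0.0429). Acd came to -0.12 (adjusted p = 0.0943, edgeR), or 0.0402 with batch as a block, and without aged LPS replicate 5 to -0.15 (adjusted p = 0.0449). Gar1 came to 0.18 (adjusted p = 0.116, edgeR), or 0.0418 with batch as a block. Tinf2 had 36.9, 35.2, 35.1, 36.8 and 38.8 CPM untreated and 33.9, 35.8, 37.1, 35.4 and 34.8 CPM with LPS, with a 95% interval of the log2 fold change from -0.18 to 0.09. With library totals alone Tert, Acd, Tinf2 and Nhp2 all passed as lower in aged cells, at -0.64, -0.28, -0.21 and -0.12, and 7 of the 10 genes were called.

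**Figure D3:**
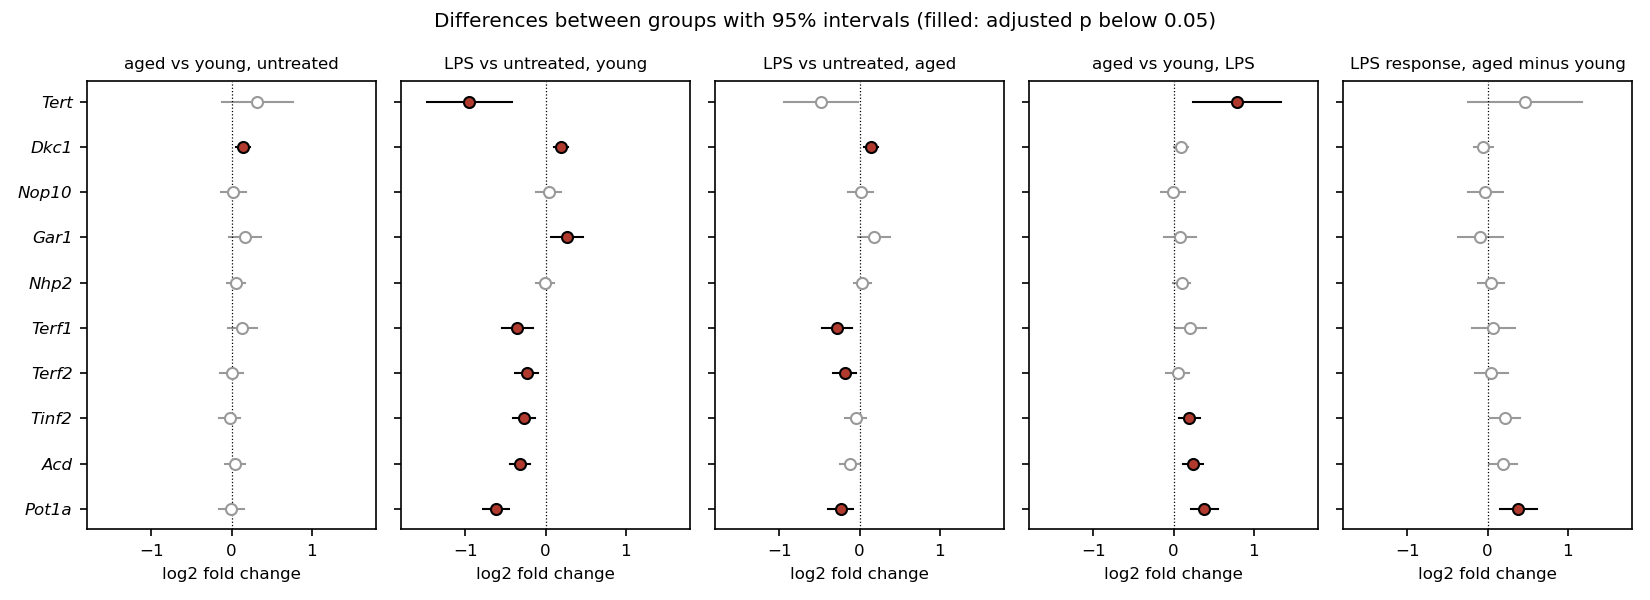
Log2 fold changes of the 10 genes (x axes, TMM scale) with 95% intervals in each comparison, filled where the adjusted p was below 0.05. In young cells 6 genes are filled below 0 after LPS and 2 above it, and in the comparison of aged with young LPS cells 4 are filled, all above 0. The positive values of Dkc1 after LPS turn to -0.02 with library totals alone.

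Among LPS-treated cultures, 4 of these transcripts were higher in aged than in young cells. Pot1a, Acd, Tinf2 and Tert were higher and 0 of the 10 were lower (0 also at an unadjusted p under 0.05 and in DESeq2), beside 14.0% of all genes higher and 15.0% lower (29.0% either way). Their median log2 difference was 0.15, beside 0.01 over all genes. With library totals alone 70.1% of called genes were higher in place of 48.3%, and 7 of the 10 genes were called.

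Pot1a differed by 0.38 ± 0.08 (log2, SE; adjusted p = 0.000881, edgeR), with every aged LPS library (15.5 to 18.5 CPM) above every young LPS library (11.0 to 14.9 CPM). Acd differed by 0.24 ± 0.06 (adjusted p = 0.00421, edgeR), with 46.0, 41.0, 42.6, 41.9 and 47.7 CPM in aged LPS libraries against 33.1 to 38.3 CPM in young ones, again without overlap. Groups did not overlap for 14.8% of all genes. Both calls held with any single library left out.

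The Tinf2 and Tert differences were weaker. Tinf2 differed by 0.20 ± 0.06 (adjusted p = 0.0248, edgeR) and was higher in 4 of 5 batches. The Tinf2 call was lost without aged LPS replicate 3 (0.18, adjusted p = 0.0536), young LPS replicate 4 (0.15, adjusted p = 0.0756) or young LPS replicate 5 (0.18, adjusted p = 0.0597). Tert differed by 0.79 ± 0.27 (adjusted p = 0.0286, edgeR), was higher in 3 of 5 batches, and its groups overlapped. The Tert call was lost without aged LPS replicate 3 (0.63, adjusted p = 0.0885) or young LPS replicate 3 (0.78, adjusted p = 0.0590), 4 (0.68, adjusted p = 0.0728) or 5 (0.61, adjusted p = 0.0866). Both were also above the threshold when only these groups were fitted (adjusted p = 0.0561 for Tinf2 and 0.0767 for Tert). The same held with no filter on low counts (0.0612 for Tinf2 and 0.0533 for Tert, edgeR). Leaving out a whole batch ended the Tinf2 call in 4 of 5 cases (adjusted p up to 0.116, edgeR). For Tert it did so in 3 of 5 (up to 0.156). Terf1 came to 0.21 (adjusted p = 0.102, edgeR), and without young LPS replicate 1, its high library, to 0.28 (adjusted p = 0.0237). Dkc1 came to 0.09 (adjusted p = 0.111), and without aged LPS replicate 1 to 0.12 (adjusted p = 0.0452). Nhp2 came to 0.10 (adjusted p = 0.182), or 0.0329 with batch as a block.

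Whether the response to LPS itself differed between aged and young cells was tested as an interaction. Pot1a was the only one of the 10 genes called, its response being 0.38 ± 0.11 less negative in aged cells (95% interval 0.16 to 0.61, adjusted p = 0.0367, edgeR), beside 4.12% of all genes with a positive and 2.27% with a negative interaction (6.39% either way). Of all called interactions 64.4% were positive, and 81.3% with library totals alone. The Pot1a call was fragile. Leaving out each of the 20 libraries in turn ended it in 13 cases, with adjusted p over all 20 between 0.0143 and 0.0780 and the difference between 0.33 and 0.44. Leaving out a whole batch ended it in 5 of 5 cases, with adjusted p up to 0.289 and a difference of 0.30 without batch 2, and it was also lost with no filter on low counts (adjusted p = 0.0921). The single libraries were aged LPS replicates 2, 4 and 5, aged untreated replicates 1, 2, 3 and 4, young LPS replicates 1 and 2, and young untreated replicates 1, 2, 3 and 5. For Tert the interaction was 0.47 with a 95% interval from -0.24 to 1.18 (adjusted p = 0.515), for Tinf2 0.22 (adjusted p = 0.164) and for Acd 0.19 (adjusted p = 0.193). Tert, Acd, Tinf2 and Gar1 were called after LPS in young but not in aged cells, and on the TMM scale the test of that difference did not pass for any of them, Gar1 having an interaction of -0.09 (adjusted p = 0.804). With library totals alone the Tinf2 interaction passed (0.28, adjusted p = 0.0427).

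**Figure D4:**
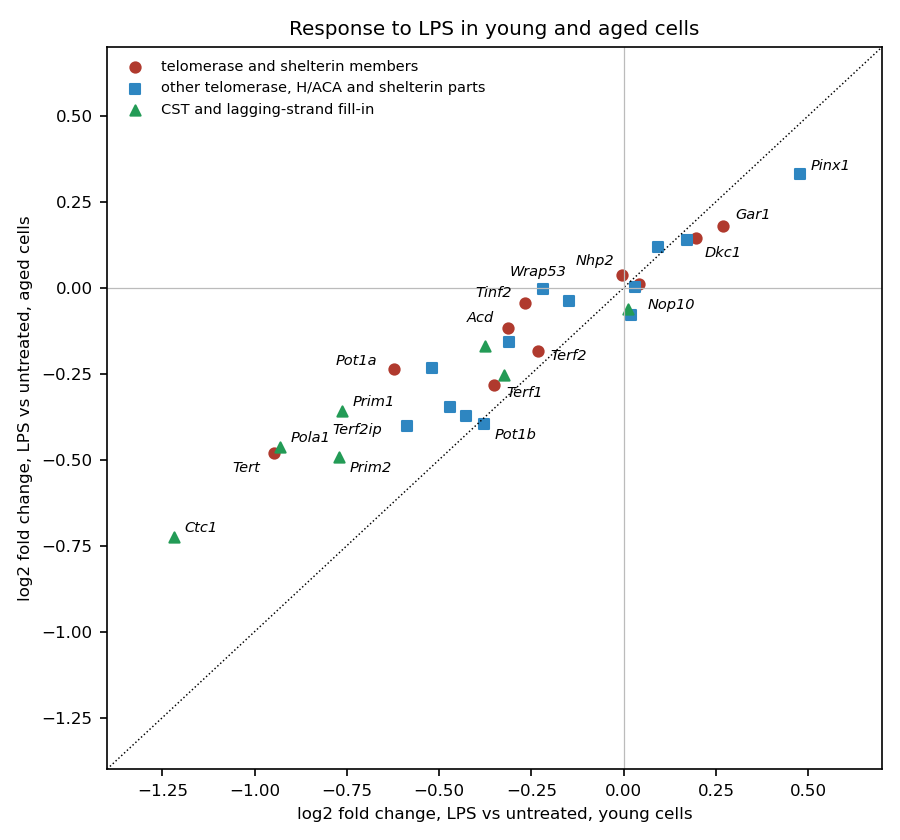
Log2 fold change after LPS in young cells (x axis) against aged cells (y axis) on the TMM scale for the 10 genes (circles), other telomerase, H/ACA and shelterin genes (squares) and CST with DNA polymerase alpha-primase (triangles), with equality as a dotted line. Ctc1 lies lowest, at -1.22 in young and -0.72 in aged cells, and Pot1a lies above the line. Dkc1 is above 0 here but at -0.02 in both with library totals alone.

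The remaining parts of the same complexes were read from lists of 40 further telomere genes, of which 39 were tested. In aged against young untreated cells 3 were higher and 1 lower, beside 3.71% and 7.81% of all genes. After LPS, 4 were higher and 24 lower in young cells, with a median log2 fold change of -0.28, beside 31.2% and 33.5% of all genes and a median of -0.01. In aged cells 6 were higher and 17 lower, with a median of -0.13, beside 27.5% and 26.9% of all genes and a median of 0.00. Between aged and young LPS cells 15 were higher and 3 lower, beside 14.0% and 15.0% of all genes.

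Terf2ip, which encodes the TRF2 partner RAP1, fell after LPS by 0.59 ± 0.06 in young cells (adjusted p = 7.73e-09, edgeR) and by 0.40 ± 0.06 in aged cells (adjusted p = 3.26e-06), on the log2 scale. Its levels were 26.0 to 28.6 CPM in young untreated, 17.2 to 19.5 in young LPS, 25.2 to 28.8 in aged untreated and 19.6 to 21.8 in aged LPS libraries, so LPS separated the groups at both ages. Pot1b fell by 0.38 ± 0.12 in young cells (adjusted p = 0.00997) and by 0.40 ± 0.12 in aged cells (adjusted p = 0.00867). Pot1b ranged from 8.13 to 10.1 CPM in aged untreated and from 4.49 to 8.32 CPM in aged LPS libraries, with overlap. The lowest value was that of aged LPS replicate 4. The interaction of Pot1b was -0.02 (adjusted p = 0.979), beside 0.38 for Pot1a. The difference between the interactions of Pot1a and Pot1b was not tested.

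Wrap53, whose product TCAB1 brings telomerase RNA to Cajal bodies, fell in young cells (log2 fold change -0.22 ± 0.09, adjusted p = 0.0337, edgeR), was at 0.00 in aged cells (adjusted p = 0.978), and was higher in aged than young LPS cells (0.26 ± 0.09, adjusted p = 0.0272). Its responses to LPS at the 2 ages differed by 0.21, which did not pass the test (adjusted p = 0.361). Pinx1, a nucleolar inhibitor of telomerase, rose after LPS by 0.48 ± 0.08 in young and 0.33 ± 0.08 in aged cells, and remained above 0 with library totals alone (0.26 and 0.17). Tep1, a telomerase-associated protein, fell by 0.43 in young and 0.37 in aged cells, and was also lower in aged untreated cells (-0.27, adjusted p = 0.0275). Parn, the nuclease that matures telomerase RNA, fell by 0.31 in young and 0.16 in aged cells (adjusted p = 9.50e-05 and 0.029), and Smg6 fell by 0.47 and 0.35 (adjusted p = 0.000104 and 0.00254). Ruvbl1, an ATPase of telomerase assembly, was higher in aged untreated cells (0.18, adjusted p = 0.0451). In aged against young LPS cells Ruvbl2 (0.19), Nufip1 (0.17) and Zcchc8 (0.35) were higher.

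The CST complex and DNA polymerase alpha-primase fill in the strand opposite the one that telomerase extends. Of 7 such genes 6 fell after LPS in young and 6 in aged cells, beside 33.5% and 26.9% of all genes. Ctc1, the large CST subunit, went from 76.5 to 93.9 CPM untreated to 32.8 to 43.0 CPM with LPS in young cells and from 70.0 to 86.1 CPM to 42.9 to 52.2 CPM in aged cells. The log2 fold changes were -1.22 ± 0.08 and -0.72 ± 0.08 (adjusted p = 6.06e-12 and 5.02e-08, edgeR). Pola1, the polymerase subunit, followed at -0.93 and -0.46, Prim2 at -0.77 and -0.49 and Prim1 at -0.76 and -0.36. The response was less negative in aged cells for Ctc1 (interaction 0.50, adjusted p = 0.00842), Pola1 (0.47, adjusted p = 0.00669) and Prim1 (0.41, adjusted p = 0.0431). In aged against young LPS cells Pola1, Prim1, Pola2 and Ctc1 were higher, by 0.46, 0.54, 0.30 and 0.36.

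Among 19 regulators and end-processing factors, Daxx, the histone H3.3 chaperone that acts with ATRX, rose from 48.4 to 52.4 CPM to 175 to 247 CPM in young cells (2.08 ± 0.11, adjusted p = 1.18e-13, edgeR). In aged cells Daxx rose from 43.7 to 51.7 CPM to 88.7 to 148 CPM (1.16 ± 0.11, adjusted p = 4.07e-09), and the responses differed (interaction -0.92, adjusted p = 0.000742). The median of Daxx in aged LPS libraries was 102 CPM. Exo1, the nuclease that resects chromosome ends, fell by 1.35 and 0.68 in young and aged cells (interaction 0.67, adjusted p = 0.000742), Fen1 fell by 0.77 and 0.33 (interaction 0.45, adjusted p = 0.00240), and Slx4ip rose by 1.10 and 0.75. Atrx fell by 0.59 in young and 0.38 in aged cells. Blm, a RecQ helicase, was higher in aged than young LPS cells (0.39, adjusted p = 0.000968), while Gnl3 (0.19) and Dclre1b (0.22), the Apollo nuclease, were higher in aged untreated cells.

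Genes of DNA replication moved alongside. Of 14 S-phase and division genes 12 fell after LPS in young cells (median log2 fold change -0.87) and 11 in aged cells (median -0.36), beside 33.5% and 26.9% of all genes lower and all-gene medians of -0.01 and 0.00. Of the 14 genes 8 had a positive interaction, beside 4.12% of all genes. Their summed level ran from 3770 to 4198 CPM in young untreated, 2271 to 2833 in young LPS, 3843 to 4124 in aged untreated and 2722 to 3455 CPM in aged LPS libraries. Mcm7 fell by 1.34 in young and 0.73 in aged cells. Their part in the results for Tert, shelterin and CST was not tested.

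The 8 subunits of the chaperonin CCT, which folds the TERT-trafficking protein TCAB1, rose after LPS at both ages on the TMM scale (8 of 8 in each, beside 31.2% of all genes higher in young and 27.5% in aged cells). Cct3 rose by 0.66 in young and 0.37 in aged cells, and with library totals alone it stayed above 0 (0.44 and 0.21), while Cct5 came to 0.00 in both. In aged untreated cells 4 of the 8 rose, beside 3.71% of all genes, Cct6a by 0.18 (adjusted p = 0.00760), Cct4 by 0.20, Cct2 by 0.14 and Cct7 by 0.13.

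Factors known from the literature to act on the Tert promoter moved in several directions. After LPS Myc rose by 1.5 ± 0.12 in young and 1.53 ± 0.12 in aged cells (adjusted p = 2.58e-10 and 5.06e-10, edgeR), and its partner Max by 0.68 and 0.35. Mxi1, a MAX partner that opposes MYC, fell by 1.49 and 0.95, E2f1 fell by 0.93 and 0.32, and Klf4 by 1.87 and 1.49. Mxd1 moved opposite to Mxi1. In young cells Mxd1 had 9.89 to 14.49 CPM untreated and 23.05 to 60.26 CPM with LPS. In aged cells it had 6.46 to 8.41 CPM untreated and 11.5 to 34.6 CPM with LPS. In the interaction Max was lower (-0.33), and E2f1 (0.60) and Mxi1 (0.54) were higher. Of 12 factors 4 rose and 7 fell in young cells, beside 31.2% and 33.5% of all genes. In aged cells 4 rose and 4 fell, beside 27.5% and 26.9% of all genes, a share near that of all genes. In aged against young LPS cells E2f1 (0.50) and Mxi1 (0.34) were higher and Max (-0.23) and Mxd1 (-1.19) were lower. Mxd1 was uneven in aged LPS libraries, from 11.5 to 34.6 CPM with a median of 12.0 CPM. Mxi1 was the only factor called in aged untreated cells (-0.19, adjusted p = 0.0428).

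For a pair of genes the count may hold reads of a neighbour. Tinf2 overlaps Gmpr2 on the opposite strand over 1540 bases (31.2% of its exons), and Gmpr2 rose after LPS by 0.32 in young and 0.20 in aged cells, opposite to Tinf2 in young cells. Acd overlaps Carmil2 on the opposite strand over 1208 bases (33.3%), but Carmil2 averaged 0.221 to 0.361 CPM in the 4 groups. Among the other genes named, Fen1 has the same limit, overlapping opposite-strand genes over 2039 of its 2422 exonic bases. Whether counting used strand is not given in the sources used here. The transcripts of Tert, Nop10, Gar1, Nhp2, Terf2 and Pot1a had no match of 95% identity over 100 bases in another gene. Dkc1 and Terf1 had matches of at most 145 and 156 bases to unrelated genes.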

How the data were processed

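The 20 libraries were prepared from mRNA with a stranded Illumina kit. The authors aligned reads with STAR 2.6.1d to GRCm38 and counted them per Ensembl gene with featureCounts 1.5.1, and the deposited table holds these raw counts, without normalization. Whether strand, multimapping or overlap options were set is not given in the sources used here. Of 55487 gene IDs, 55227 matched GENCODE M21, which gave symbols, positions and exon lengths.

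The main fit was edgeR 4.0.16 (R 4.3.3), glmQLFit and glmQLFTest, on all 20 libraries with group as the only term, TMM scaling, and genes kept by filterByExpr. P-values were adjusted by Benjamini-Hochberg over all 12799 genes, and a gene was called at an adjusted p below 0.05. Standard errors and 95% intervals were derived from the quasi-likelihood F. CPM used TMM-scaled library sizes. Alternatives were DESeq2 1.42.0, DESeq2 size factors, library totals alone, no filter, at least 10 counts in every library, only the groups compared, batch as a block, and each library or batch left out. On counts simulated for the comparison of aged with young untreated cells (12666 genes), edgeR recovered 200 of 200 genes changed 2-fold, with 8 false calls. The simulation gave all genes the same spread, changed only genes above a minimum count, and held no LPS effect. It does not measure how well smaller differences, or those of genes with few counts such as Tert, are found.

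The label numbers mark shared batches, which pairs the cultures. Deviations from group means correlated at 0.146 on average between libraries of the same number (30 pairs, -0.214 to 0.394) and at -0.0358 otherwise. Deviations cancel within each group, so the latter value follows largely from the former and is no separate comparison. Replicates of a group all differed by more than sampling noise (chi-square per degree of freedom 2.42 to 26.8). The study calls the replicates independent, and p-values measure the spread between these cultures of 1 cell line. Depth sets a floor of 3 counts (0.165 to 0.296 CPM) and the intervals cover counting and replicate error together.

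The genes and lists were chosen with earlier results of these data known. The rule for named genes took all 10 members, Terc, Terf2ip, Pot1b and Wrap53, up to 4 called genes of each other list per comparison by smallest adjusted p, and the 3 genes outside the lists whose log2 CPM correlated best with Tert and with Pot1a. Promoters came from RefSeq (GRCm38.p6), and transcripts were compared with megablast.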

Additional observations from a re-analysis of the deposited data

Results flagged for a closer look

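In groups of 5 libraries, a library whose gap to its nearest neighbour took up more of the group's range than Dixon's 95% critical value was singled out. Of 40 groups tested (10 genes in 4 groups), 2 had such a library, which is the number that a rate of 1 in 20 gives by chance. Gar1 in aged untreated replicate 3 was 73.6 CPM, the next library being 90.4 CPM, a gap of 0.763 of the range. Acd in young LPS replicate 2 was 33.1 CPM, the next being 37.6 CPM, a gap of 0.857 of the range.

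The response of Pot1a to LPS differed between aged and young cells by 0.38 on the log2 scale (adjusted p = 0.0367, edgeR's quasi-likelihood test of the interaction), the fall being smaller in aged cells. The call was fragile: it was lost in 13 of 20 single removals, in 5 of 5 batch removals, and with no filter on low counts. The cause was not tested.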

How the results depend on the processing

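Over 7 other settings and 25 sets of left-out libraries, 69 of the 10 genes' values changed sign, counted apart whatever their side of the threshold. Of the rest, 1433 kept direction and side of the threshold, 64 lost the call and 19 gained it. A value with no adjusted p, such as the Tert interaction in DESeq2, was counted as kept. Sign changes were of values near 0 or came with library totals alone: Dkc1 at -0.024 (young) and -0.016 (aged) after LPS, Nop10 at -0.18 and -0.15, Nhp2 at -0.12 in aged cells, Nop10 at 0.073 between aged and young LPS cells, and interactions of 0.0079 for Dkc1 and 0.031 for Nop10. The cause was not tested. Pot1a between aged and young untreated cells came to 0.0037 (DESeq2), 0.0049 (its size factors), 0.00012 (10 counts everywhere), 0.020 (library totals), 0.0021 (no filter) and 0.012 (only these groups). Nhp2 after LPS in young cells came to 0.0060 (DESeq2) and 0.0100 (its size factors), and Nop10 with no filter to -0.0052 after LPS in aged cells and 0.0021 between LPS groups.

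Leaving out libraries gave Dkc1 an interaction of -0.097 to 0.0016, Nhp2 -0.031 to 0.030 after LPS in young cells, Nop10 -0.0085 to 0.092 there, -0.022 to 0.045 in aged cells, -0.063 to 0.028 between LPS groups, -0.027 to 0.073 between untreated groups and -0.080 to 0.020 as an interaction. Terf2 gave -0.000071 to 0.082 as an interaction, -0.0087 to 0.10 between LPS groups and -0.031 to 0.046 between untreated groups, where Pot1a gave -0.042 to 0.033 and Tinf2 -0.065 to 0.028.

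Of the 10 genes, the number called between untreated groups was 0 with no filter and 0 to 1 with libraries left out. After LPS in aged cells it was 7 with library totals and 1 to 5 with libraries left out. Between LPS groups it was 7 with library totals, 2 with no filter, 2 with only these groups and 2 to 6 with libraries left out. As interactions it was 2 with library totals, 0 with no filter and 0 to 1 with libraries left out. Of the other telomere genes, 7 were called between untreated groups with the replicate block and 0 to 6 with libraries left out, 9 to 20 between LPS groups with libraries left out, and 10 as interactions with library totals and 2 to 7 with libraries left out. The replicate block changed 3 calls of the 10 genes: Gar1 and Acd after LPS in aged cells and Nhp2 between LPS groups, given above. Depth limits Tert, with 6 to 41 counts per library.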

Other observations

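Outside the lists, the genes whose log2 CPM followed Tert most closely over the 20 libraries were Chd9, a chromodomain helicase (Pearson r = 0.895), Hspb6, a small heat shock protein (r = 0.881), and Mcm8, a helicase of homologous recombination (r = 0.865). Mean levels of Mcm8 were 42.2 CPM in young untreated, 25.1 in young LPS, 42.0 in aged untreated and 33.6 CPM in aged LPS cells. For Pot1a they were Ticrr, which helps to start DNA replication (r = 0.953), Mms22l, which acts at stalled replication forks (r = 0.950), and Nlrp10 (r = 0.949). Mean levels of Ticrr were 47.8, 20.8, 46.8 and 33.8 CPM in the same order. The points are libraries of 4 groups from shared batches, and such values describe a common pattern over these groups only.

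The F over the 4 groups placed the 10 genes far apart: Pot1a ranked 3510 of 12799, Dkc1 4806, Acd 5315, Terf1 6179, Tert 6626, Tinf2 7383, Terf2 7690, Gar1 8283, Nhp2 10885 and Nop10 12717. Nop10 was among the genes that varied least between groups for its precision.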
